A study of Drosophila melanogaster with 6 samples.

Results

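The 282 intron-rich genes described here were the genes with at least 20 annotated splice junctions in the deposited count table of Drosophila melanogaster embryos. They made up 1.91% of the 14737 genes in the table and held 7712 of its 54271 annotated junctions (14.2%). The members were chosen by the number of junctions alone, without regard to their counts. The median member had 24 junctions and 66 members had 30 or more. Dscam1 had the most, 205.

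RNA was taken from lysates of whole embryos of OreR (Oregon-R), a wild-type strain, and of a strain with the genotype caperCC01391, an allele of caper. That gene encodes an RNA-binding protein related to vertebrate splicing factors. Each genotype had 3 biological replicates, and all 6 libraries were stranded, paired-end and sequenced in 1 lane, per the labels' protocols. Eggs were laid on yeasted apple juice plates, without treatment, and the labels do not give the age of the embryos. The CC01391 libraries are called mutant below. Whether the allele was homozygous, and what else differed between the strains, was not given. Effects of the allele, of strain background and of any difference in embryo age therefore cannot be told apart. The gene caper was not analysed here, so it gave no check of the genotype labels.

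Introns are removed from a primary transcript by the spliceosome, which joins the flanking exons at a splice junction. Where different splice sites or exons are chosen, 1 gene gives several mRNAs, and genes with many introns offer many such choices. In flies, genes of this kind often encode large structural proteins of muscle, ion channels, adhesion receptors and regulators of RNA or signalling. A read pair that crosses a junction shows that the exons were joined. The share of a gene's counts on a junction can be compared between genotypes, but it is not the rate at which that junction was chosen. All counts of the gene, on exons too, are in its denominator. Even the junction with the largest share in a member held a median of 3.92% in OreR. Shares are given as a percent of the gene's counts, and since 1 read pair can cross several junctions they do not add up to 100.

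The libraries held 34815930 to 42956396 gene counts, and the intron-rich genes took 5.77% to 6.46% of them in OreR and 5.52% to 5.86% in the mutant. Each of the 282 genes had counts in at least 1 library. Of these, 279 passed the filter on low counts, and Gyc32E, CG3339 and FBgn0035935, each below 0.5 CPM in every library, did not. Their median abundance was 7.11 on the log2 CPM scale, where CPM stands for counts in proportion to the scaled size of a library, against 5.01 for all 10251 tested genes. In the table, 27 of the intron-rich genes carried an identifier that matched no symbol.

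Intron-rich genes were more often lower than higher in mutant embryos. Of the 279 tested, 172 changed (61.6%), 58 upward and 114 downward, by edgeR's quasi-likelihood test at a Benjamini-Hochberg adjusted p below 0.05. Among all 10251 tested genes 46.9% changed, with 26.4% higher and 20.6% lower, whereas 20.8% of the intron-rich genes were higher and 40.9% lower. Their median log2 fold change, mutant over OreR, was -0.30 (interquartile range -0.58 to 0.21), against -0.07 for all tested genes. Most changes were below 2-fold: changed members had a median absolute log2 fold change of 0.58, and 7 rose and 14 fell by at least 2-fold. The 3 values of each genotype did not overlap in 199 members (71.3%), against 60.4% of all tested genes. Upper quartile scaling moved the median of all tested genes from -0.07 to -0.23 and that of the intron-rich genes from -0.30 to -0.46, and under it 41 of the intron-rich genes were higher and 156 lower. Over all 10251 tested genes the same scaling gave 2269 higher and 3566 lower, so that calls over the whole table were mostly upward in the main test and mostly downward under upper quartile scaling. Without mutant replicate 2, 96 changed, 43 upward and 53 downward.

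The share of genes called lower was larger in each class with more junctions. It was 13.9% of genes with no annotated junction, 19.4% of genes with 1 to 9, 30.5% of genes with 10 to 19 and 40.9% of the intron-rich genes. The median log2 fold change was -0.01, -0.06, -0.16 and -0.30 in the same order. Median abundance also differed between these classes, at 3.31, 4.95, 6.57 and 7.11 log2 CPM, and its part in the counts was not tested. Near the limit of 20 junctions, 10 of the 43 genes with exactly 20 were higher and 18 lower, and 7 of the 38 tested genes with exactly 19 were higher and 13 lower. At 20 junctions the most abundant were mask, an ankyrin repeat protein, and Bsg (basigin), a membrane glycoprotein. mask had 673, 644 and 633 CPM in OreR and 658, 796 and 988 CPM in the mutant, always in the order of replicates, with overlapping genotypes (adjusted p = 0.094 with edgeR). Bsg had 420.5, 427 and 471 CPM against 509, 576 and 609 CPM, higher in each mutant library (log2 fold change 0.36 ± 0.09 (SE), adjusted p = 0.016). The call of Bsg ended with upper quartile scaling (log2 fold change 0.20, adjusted p = 0.058) and without OreR replicate 1 (0.059) or mutant replicate 2 (0.065), whereas mask was called higher without mutant replicate 1 (0.012). The most abundant genes with 19 junctions were up, which encodes troponin T, with a log2 fold change of -0.82 ± 0.26, and psq, a BTB domain transcription factor, with 0.90 ± 0.10. The former had an adjusted p of 0.034 in the edgeR test and lost its call without OreR replicate 1 (0.074), OreR replicate 2 (0.098) or mutant replicate 2 (0.085).

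**Figure D1:**
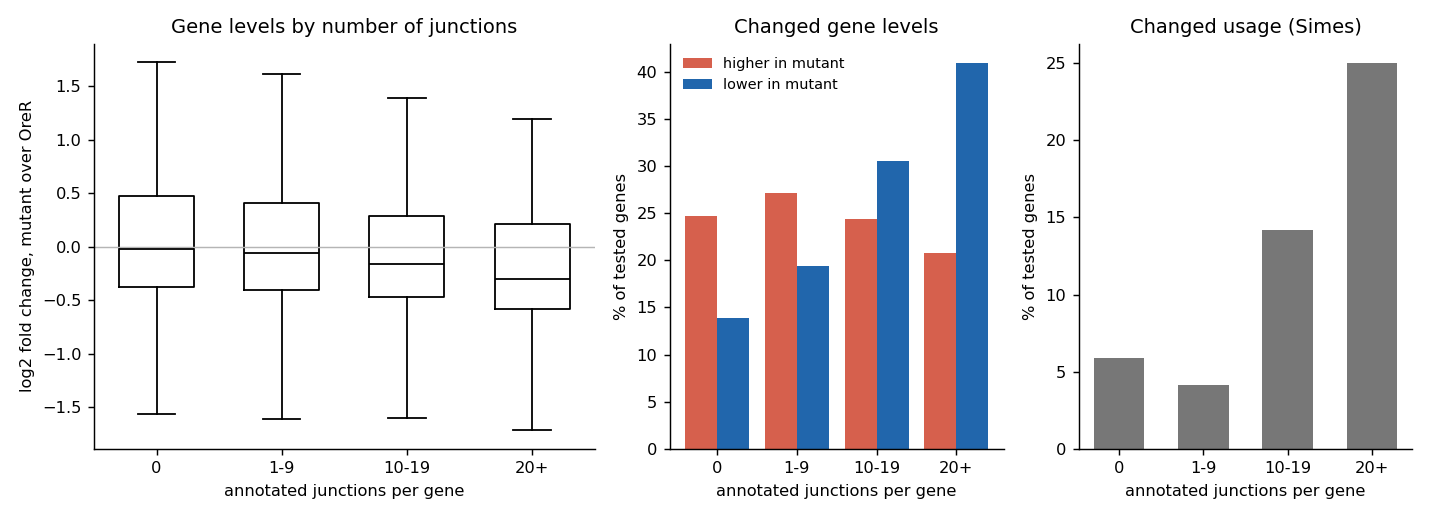
Gene levels and usage by the number of annotated junctions per gene. The left panel gives the log2 fold change of tested genes, mutant over OreR (boxes span the quartiles with the median as a line, whiskers reach at most 1.5 times the box, outlying genes not drawn), the middle panel the percent of tested genes called higher (red) or lower (blue), and the right panel the percent of genes with changed usage. Intron-rich genes stand at 20.8% higher, 40.9% lower and 25% with changed usage.

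The 8 genes with most junctions are the extremes of the class, and most of them encode very large proteins. Dscam1 (FBgn0033159), an immunoglobulin-type adhesion molecule with arrays of alternative exons that neurons use for self-recognition, had 192, 198 and 167 CPM in OreR and 157, 139 and 179 CPM in the mutant. The genotypes overlapped (log2 fold change -0.23 ± 0.11, adjusted p = 0.13 with edgeR; with upper quartile scaling -0.39 and 0.026). Reads fell on 115 to 163 of its 205 junctions per library, 8 had none in any library and only 28 had enough counts to be tested for usage, none of which was called (3 at an unadjusted p below 0.05 with diffSpliceDGE of edgeR, 0 with limma). dpy (FBgn0053196), a giant protein of the apical extracellular matrix with 95 junctions, had 187, 235 and 163 CPM in OreR and 123, 114 and 133 CPM in the mutant. Every mutant library was below every OreR library (1.58-fold lower, log2 fold change -0.66 ± 0.14, adjusted p = 0.007).

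The muscle giants among them were lower as well. sls (FBgn0086906), a titin relative with 52 junctions, had 469.7, 641 and 461 CPM in OreR and 392, 349 and 332 CPM in the mutant, with no overlap. Its log2 fold change was -0.55 ± 0.14 (adjusted p = 0.016 with edgeR; 0.063 without mutant replicate 2). bt (FBgn0005666, 50 junctions), which encodes projectin, had 760.1, 957 and 616 CPM against 586, 495 and 355 CPM, and mutant replicate 3 was the lowest library. For bt the log2 fold change was -0.70 ± 0.21 (adjusted p = 0.031), a call that ended without OreR replicate 1 (0.062), OreR replicate 2 (0.092), mutant replicate 2 (0.082) or mutant replicate 3 (0.061). cac (FBgn0263111, 50 junctions), the pore-forming subunit of a neuronal voltage-gated calcium channel, had 34.7, 47.4 and 32.6 CPM in OreR and 28.5, 26.5 and 20.9 CPM in the mutant. The groups did not overlap (log2 fold change -0.59 ± 0.18, adjusted p = 0.029), and the call ended without OreR replicate 2 (0.063), mutant replicate 2 (0.075) or mutant replicate 3 (0.080).

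Like Dscam1, sls, bt and cac, the remaining 3 of the 8 gave no call that held in every setting. shot (FBgn0013733, 53 junctions), a spectraplakin that links actin to microtubules, had 525, 576 and 472 CPM in OreR and 389.7, 416 and 503 CPM in the mutant. Its genotypes overlapped (log2 fold change -0.27 ± 0.12, adjusted p = 0.10 with edgeR), and the gene was called lower without mutant replicate 3 (0.029) or with upper quartile scaling (0.021). mtd (FBgn0013576, 50 junctions) lay at 280.5, 259 and 289.8 CPM against 257, 266 and 257 CPM, also with overlap (log2 fold change -0.09 ± 0.07, adjusted p = 0.34; -0.25 and 0.014 with upper quartile scaling). Dnah3 (FBgn0035581, 51 junctions), a heavy chain of axonemal dynein, was at 1.85, 2.11 and 1.76 CPM in OreR and 2.51, 2.67 and 3.04 CPM in the mutant. Each mutant library was above each OreR library (log2 fold change 0.52 ± 0.18, adjusted p = 0.047), but the call was lost with upper quartile scaling (0.13), with DESeq2 (0.058), without a filter on low counts (0.054), and without OreR replicate 1 (0.12), OreR replicate 3 (0.10) or any of mutant replicates 1 to 3 (0.058, 0.11 and 0.14). In usage, 0 of the 201 tested junctions of these 8 genes were called with diffSpliceDGE or with limma, and 22 had an unadjusted p below 0.05 with the former. Among all tested junctions of intron-rich genes 3.74% were called with diffSpliceDGE, and 1.77% of those in the whole table. In each of shot, sls and mtd, 1 exonic bin was called lower.

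Among called intron-rich genes whose genotypes did not overlap and whose log2 CPM averaged 1 or more, the largest falls were those of Dscam4, Syp and Appl. Dscam4 (FBgn0263219), a paralogue of Dscam1 with 36 junctions, had 40.0, 37.8 and 38.6 CPM in OreR and 5.46, 4.06 and 2.42 CPM in the mutant. The groups were far apart, with the mutant 9.73-fold lower (log2 fold change -3.28 ± 0.27, adjusted p = 0.00032 with edgeR). Syp (FBgn0038826), an RNA-binding protein of the hnRNP class related to mammalian SYNCRIP, had 3.93, 5.19 and 3.36 CPM against 0.981, 1.28 and 1.31 CPM. It was 3.50-fold lower (log2 fold change -1.81 ± 0.24, adjusted p = 0.00097), and 10 of its 23 junctions had no read in any library. Appl (FBgn0000108), the fly relative of the amyloid precursor protein, had 164, 214 and 162 CPM in OreR and 57.2, 55.0 and 52.3 CPM in the mutant, without overlap.

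RyR, SK, Sur and a pair of genes with no role given were next. RyR (FBgn0011286), the ryanodine receptor that releases calcium from the endoplasmic or sarcoplasmic reticulum, had 211, 273 and 203 CPM in OreR and 86.8, 86.4 and 78.1 CPM in the mutant. All 3 mutant libraries lay far below the lowest OreR library (log2 fold change -1.45 ± 0.13, adjusted p = 0.00039 with edgeR). SK (FBgn0029761), a potassium channel opened by calcium, had 46.8, 66.8 and 44.5 CPM against 30.3, 24.2 and 16.5 CPM, and Sur (FBgn0028675), an ABC protein of the sulfonylurea receptor class, had 25.2, 29.3 and 19.8 CPM against 14.1, 13.6 and 7.33 CPM. In both, the groups did not overlap and mutant replicate 3 was lowest (log2 fold changes -1.16 ± 0.24 and -1.08 ± 0.26, adjusted p = 0.0073 and 0.013). FBgn0264255, with 48 junctions, fell from 12.3, 10.1 and 6.70 CPM to 3.97, 4.52 and 2.98 CPM (log2 fold change -1.34 ± 0.26, adjusted p = 0.0051). CG12963 had 4.04, 3.36 and 2.96 CPM in OreR and 1.94, 1.97 and 0.695 CPM in the mutant. Its log2 fold change of -1.17 ± 0.37 (adjusted p = 0.036) lost its call without each OreR replicate (0.091, 0.071 and 0.057), without mutant replicate 1 (0.052) or without mutant replicate 2 (0.057). CG30395 lay below the abundance required of the genes above and was picked after its values were seen. It had 20, 27 and 16 counts in OreR and 0, 0 and 1 in the mutant (adjusted p = 0.00079).

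Among the largest rises, Spn (FBgn0010905), a scaffold that binds protein phosphatase 1, had 142, 137 and 138 CPM in OreR and 421, 516 and 585 CPM in the mutant. The OreR libraries were tightly grouped and the mutant was 3.65-fold higher (log2 fold change 1.87 ± 0.12, adjusted p = 0.00012 with edgeR). The next largest rises were of CG42674 (2.29-fold), Lerp, a lysosomal enzyme receptor (2.27-fold), FBgn0086899 (2.17-fold) and Rme-8, a DnaJ protein of endosomes (2.07-fold). Lerp had 25.3, 26.9 and 26.3 CPM in OreR and 54.2, 61.3 and 62.1 CPM in the mutant, and Rme-8 had 151, 120.0 and 152 CPM and 233, 299 and 344 CPM. In both, the lowest mutant library exceeded the highest OreR library, as the same rule of no overlap required. Ae2, an anion exchanger, ens, a microtubule-associated partner of kinesin-1, and Fur2, a furin-type protease, rose 2.06-fold, 2.00-fold and 1.97-fold. ens (FBgn0264693) had 309, 311 and 315 CPM in OreR and 547, 643 and 682 CPM in the mutant. For these 8 rises the adjusted p ran from 0.00012 for Spn to 0.0034 for Ae2, and every one was called with each library left out.

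**Figure D2:**
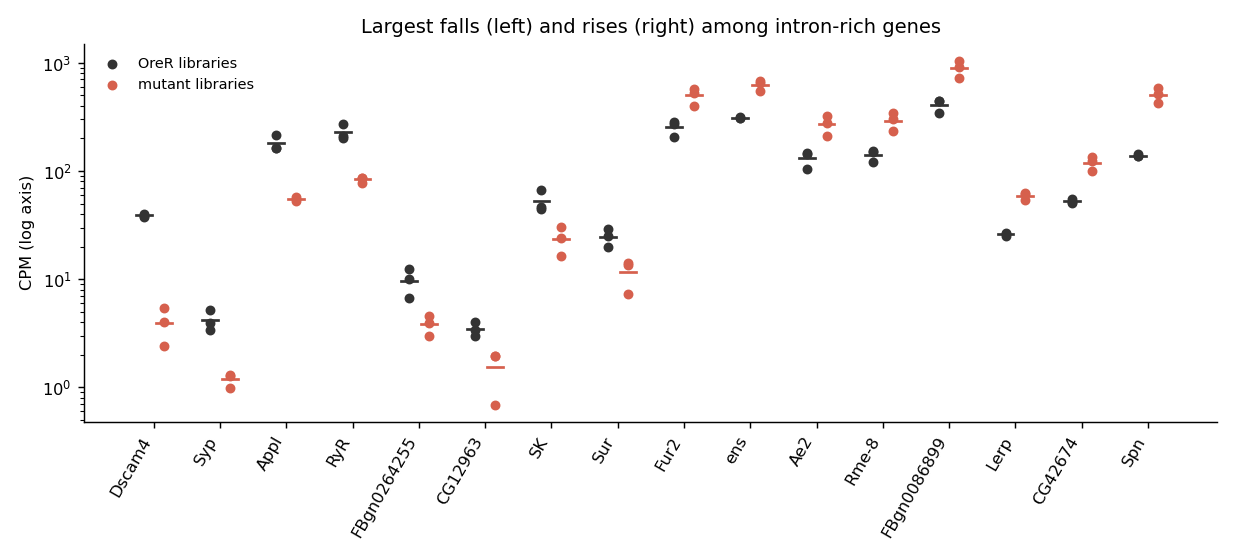
CPM (log axis) of the 8 intron-rich genes with the largest falls and the 8 with the largest rises, 1 point per library, OreR in black and mutant in red, with bars at the group means. The genes were chosen among called members whose genotypes did not overlap, so the lack of overlap is not a result. Dscam4 spans the widest gap, from 40.0, 37.8 and 38.6 CPM in OreR to 5.46, 4.06 and 2.42 CPM in the mutant.

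Grouped by role, 138 of the intron-rich genes were in a list and 144 in none. Ion channels and transporters, which set the electrical and ionic state of cells, held the most. Of the 26, 13 were lower and 0 higher, with a median log2 fold change of -0.58. Among all tested intron-rich genes 40.9% were lower and 20.8% higher (median -0.30), and among all tested genes 20.6% and 26.4%. At an unadjusted p below 0.05, edgeR called 0 higher and 19 lower, and DESeq2 called 0 and 18. Upper quartile scaling called 19 lower and 0 higher. The same scaling called 156 lower and 41 higher of all 279 tested intron-rich genes, and 3566 and 2269 of all 10251 tested genes. Those are also the counts to set beside upper quartile scaling in the role lists below, since the percentages come from the main test. The whole list, genes with fewer junctions included, had 2 genes higher and 24 lower of 57 tested. Besides RyR and SK, Itpr, the inositol trisphosphate receptor, had 149, 179.5 and 152 CPM in OreR and 115, 109.9 and 121 CPM in the mutant (log2 fold change -0.48 ± 0.09, adjusted p = 0.0054 with edgeR). Of the calcium channel subunits, the pore-forming cac, Ca-alpha1D and Ca-alpha1T were called lower, with log2 fold changes of -0.59 ± 0.18, -0.65 ± 0.14 and -0.88 ± 0.26. The auxiliary subunit stj had a log2 fold change of -0.47 ± 0.19 and was not called (adjusted p = 0.078). Potassium channels Sh, Shab, slo, eag and KCNQ had log2 fold changes between -0.79 and -0.42 and were not called.

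Structural proteins outside the cell and in muscle were also called in 1 direction only. The shares to set beside them are 40.9% lower and 20.8% higher for all tested intron-rich genes, and 20.6% and 26.4% for all tested genes. Of the 7 genes of the extracellular matrix and its receptors, 6 were lower and 0 higher (median -0.59), and 7 were lower with upper quartile scaling. In that list and the next, edgeR at an unadjusted p below 0.05 and DESeq2 also called 0 higher. LpR1, a lipophorin receptor, fell from 45.6, 37.5 and 43.8 CPM to 30.04, 28.8 and 26.8 CPM, and nrm, an immunoglobulin-type membrane protein, from 40.6, 38.9 and 32.8 CPM to 23.7, 23.9 and 26.8 CPM. Both drops were beyond the spread between replicates (adjusted p = 0.0046 and 0.0051 with edgeR). Among the 8 sarcomere and muscle genes, 5 were lower and 0 higher (median -0.46; 5 with upper quartile scaling). Mhc (FBgn0264695), the muscle myosin heavy chain, spanned 2140.1, 2390.0 and 1524 CPM in OreR and 1169, 1065 and 664 CPM in the mutant, with mutant replicate 3 lowest (log2 fold change -1.06 ± 0.24, adjusted p = 0.0094). tmod, the actin capping protein tropomodulin, changed by -0.37 ± 0.10 (adjusted p = 0.023), a call that ended without OreR replicate 3 (0.057), mutant replicate 2 (0.094) or mutant replicate 3 (0.062). Over the full lists, 4 of 38 tested matrix genes were higher and 22 lower, and 1 of 28 muscle genes was higher and 13 were lower.

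Marker genes of differentiated cells were also called lower more often than higher, whereas 20.6% of all tested genes were lower and 26.4% higher. Of 14 neuron markers tested, 10 were lower and 1 higher, and their summed level was 1469 to 1754 CPM in OreR and 1189 to 1245 CPM in the mutant. Muscle markers were lower in 7 of 12 and higher in 0, with 6045 to 8896 CPM in OreR and 2951 to 5544 CPM in the mutant. Cuticle markers were lower in 6 of 14 and higher in 0, with 1507 to 2138 CPM in OreR and 928 to 1423 CPM in the mutant, and gut markers in 5 of 6 and higher in 0, with 91.9 to 127 CPM in OreR and 69.5 to 74.0 CPM in the mutant. Hemocyte markers were lower in 6 of 10 and higher in 1, with 2685 to 3729 CPM in OreR and 1764 to 2216 CPM in the mutant. Markers of maternally supplied mRNA were higher in 6 of 14 and lower in 0, with 2807 to 4280.2 CPM in OreR and 6159.5 to 8195 CPM in the mutant. Each of these counts of 0 was also 0 at an unadjusted p below 0.05 with edgeR and with DESeq2. No gene of these 6 lists was at 0 in all libraries, and some intron-rich genes were themselves markers. The neuron markers Appl, brp and cpx and the muscle markers Mhc, Mef2 and sls were lower. Of the maternal markers, pum was higher and spir was not called (log2 fold change 0.22 ± 0.08), and of the hemocyte markers, Ppn was lower and Hml was not called (-0.50 ± 0.34). The part of these markers in the levels of intron-rich genes was not tested. In whole-embryo lysates fewer cells of a type and less RNA per cell cannot be told apart. Nor can a difference in embryo age between the genotypes, since the labels do not give the age.

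Genes of adhesion, synapse and cytoskeleton changed in both directions, as did the intron-rich genes as a whole. Of all tested intron-rich genes 20.8% were higher and 40.9% lower (median -0.30), and of all tested genes 26.4% and 20.6%. Of 13 genes of cell adhesion and axon guidance, 2 were higher and 6 lower (median -0.29; 2 and 9 with upper quartile scaling). sns, a receptor of myoblast fusion, had 185, 233 and 199 CPM in OreR and 113, 112 and 143 CPM in the mutant, whereas Lar and Ptp10D, receptor tyrosine phosphatases, rose by 0.47 ± 0.10 and 0.59 ± 0.11 on the log2 scale. Of 15 genes of synapse and membrane traffic, 3 were higher and 7 lower (median -0.26; 3 and 8 with upper quartile scaling). The 3 that rose were unc-13, a priming factor of vesicle release, and scrib and dlg1, scaffolds that set epithelial polarity. unc-13 had 237, 245 and 244 CPM against 332, 388 and 422 CPM, scrib 413, 385 and 367 CPM against 514, 605 and 668 CPM, and dlg1 275, 287 and 281 CPM against 348, 380.3 and 412 CPM, and none of the 3 overlapped between genotypes (adjusted p = 0.0017, 0.0033 and 0.0047 with edgeR). Active zone proteins brp and Rbp and the fusion clamp cpx were lower, with log2 fold changes of -0.71 ± 0.20, -0.68 ± 0.16 and -0.65 ± 0.15. Rim, also of the active zone, had a log2 fold change of -0.52 ± 0.25 and was not called (adjusted p = 0.12). Of 16 genes of cytoskeleton and motors, 1 was higher and 7 lower (median -0.26; 0 and 12 with upper quartile scaling). The fallers included kst, the heavy beta spectrin (465, 579.8 and 475 CPM in OreR and 317, 318 and 372 CPM in the mutant), Moe (moesin, log2 fold change -0.38 ± 0.08) and Khc-73, a kinesin (-0.35 ± 0.07). Over the full lists, whatever the number of junctions, 11 genes were higher and 22 lower of 54 for adhesion and guidance, 8 and 15 of 46 for synapse and traffic, and 16 and 15 of 52 for the cytoskeleton.

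Dynein heavy chains of cilia, a group assembled after the values were seen, had 6 intron-rich members, all near the low end of abundance. Of the 5 tested, Dnah3 was higher as given above and Dhc36C was lower, at 7.48, 8.74 and 7.33 CPM in OreR and 5.77, 5.83 and 5.89 CPM in the mutant, without overlap. The call of Dhc36C (log2 fold change -0.43 ± 0.14, adjusted p = 0.039 with edgeR) was lost with each of the 6 libraries left out (adjusted p from 0.069 to 0.12) and without a filter on low counts (0.086). Dhc93AB, Dhc98D and btv had log2 fold changes of -0.45 ± 0.17, -0.51 ± 0.23 and -0.26 ± 0.13 and were not called, although all 3 were called lower with upper quartile scaling. CG3339 was too low to test. No dynein junction had enough counts for a usage test, so changes in their usage were not detectable at this depth.

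Regulatory genes also changed in both directions. For comparison, 20.8% of all tested intron-rich genes were higher and 40.9% lower, and 26.4% and 20.6% of all tested genes. Of 14 kinases, phosphatases and second messenger genes, 6 were higher and 3 lower (median -0.06), which became 3 and 5 with upper quartile scaling. gish, a casein kinase 1, had 337, 319 and 358 CPM in OreR and 568, 622 and 689.9 CPM in the mutant, and Slik, a Ste20-type kinase, 356, 370.0 and 355 CPM and 484, 543 and 622 CPM. Both were higher in each mutant library (adjusted p = 0.00068 and 0.0024 with edgeR). CaMKII, a calcium-dependent kinase of neurons and muscle, went the other way, from 296, 341 and 300.3 CPM to 218, 216 and 194 CPM (adjusted p = 0.0018). Of 7 regulators of small GTPases, 3 were higher and 3 lower (median 0.00; 2 and 3 with upper quartile scaling, where the median was -0.16). Nf1, which switches off Ras, changed by 0.46 ± 0.11, and sif, an exchange factor for Rac, by -0.84 ± 0.16. The full kinase list had 35 genes higher and 15 lower of 80 tested, and the full list of GTPase regulators 14 and 12 of 37.

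Of 15 transcription and chromatin genes, 5 were higher and 6 lower (median 0.21; 4 and 7 with upper quartile scaling, median 0.05). The shares over all tested intron-rich genes were 20.8% higher and 40.9% lower, and over all tested genes 26.4% and 20.6%. gro, the Groucho corepressor, had 351, 300.2 and 341 CPM in OreR and 566, 664 and 690.4 CPM in the mutant, and Nipped-B, the cohesin loader, had 425, 373 and 429.7 CPM and 551, 669 and 694 CPM. HDAC4, a histone deacetylase, was lower, at 92.6, 95.4 and 91.0 CPM and 72.2, 75.1 and 74.3 CPM. The 3 genes showed no overlap between genotypes (adjusted p = 0.00071, 0.0028 and 0.0074 with edgeR). Among 12 RNA-binding proteins, 2 were higher and 4 lower (median -0.12; 2 and 6 with upper quartile scaling). The risers were heph, the fly polypyrimidine tract-binding protein that represses exons (269, 252 and 282 CPM in OreR and 405, 482 and 499.6 CPM in the mutant), and pum, a translational repressor and one of the maternal markers above (369.8, 340.4 and 346 CPM and 522, 669 and 687 CPM). heph changed by 0.79 ± 0.10 and pum by 0.83 ± 0.12 (adjusted p = 0.0009 and 0.0012), and the fallers were Syp, bru3, sm and Rbp6. Over the full lists, 34 of 113 transcription and chromatin genes were higher and 26 lower, and 35 of 75 RNA-binding protein genes were higher and 12 lower.

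**Figure D3:**
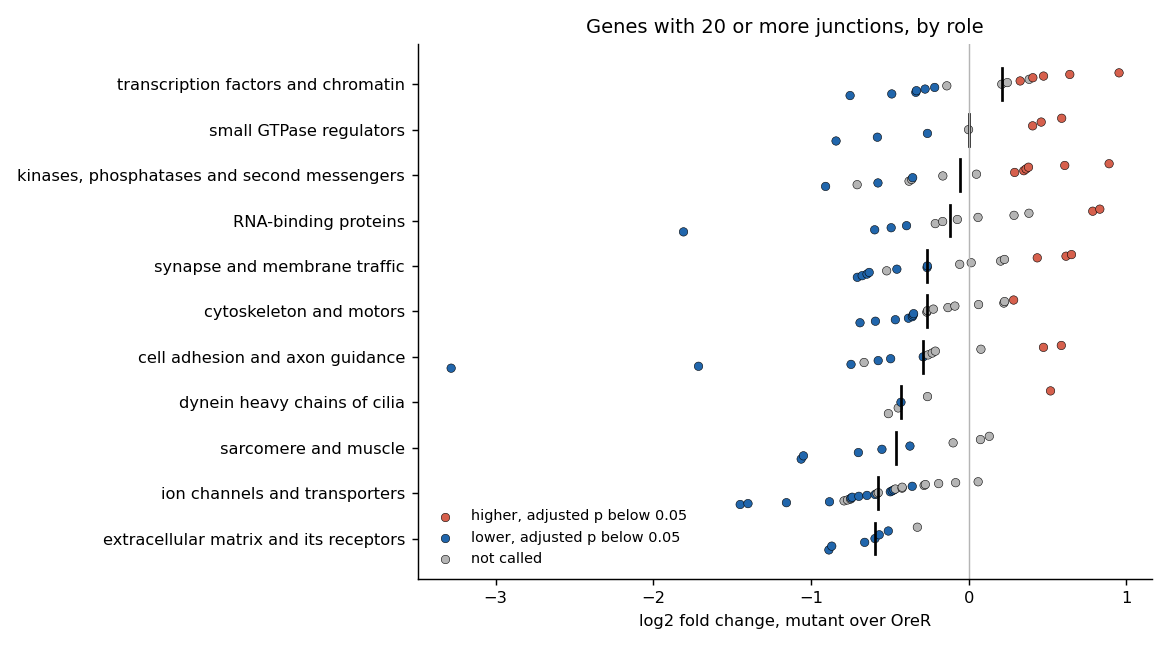
Log2 fold change, mutant over OreR, of each tested intron-rich gene in the role lists, 1 point per gene, red if called higher, blue if called lower and grey if not called, with a black bar at each list's median. Medians run from -0.59 for the extracellular matrix list to 0.21 for transcription factors and chromatin, and the group of ciliary dyneins was assembled after the values were seen.

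Usage was compared next, that is, whether exonic bins and junctions took another share of their gene in the mutant. Changed usage was found in 68 of 272 intron-rich genes (25%), against 6.04% of all 8510 genes tested (diffSpliceDGE of edgeR, Simes p per gene, Benjamini-Hochberg adjusted p below 0.05). It was 14.2% for genes with 10 to 19 junctions and 4.15% for genes with 1 to 9. A median of 40 bins and junctions was tested per intron-rich gene, against 7 over all genes, and the part of this number and of abundance in the shares was not tested. Without mutant replicate 2, 41 members were called. By role, changed usage was found in 7 of 14 kinases, phosphatases and second messenger genes, 5 of 12 RNA-binding proteins and 5 of 15 genes of synapse and membrane traffic. It was found in 3 of 26 ion channels and transporters and 1 of 14 transcription and chromatin genes. In between were 3 of 13 genes of adhesion and guidance, 2 of 8 of muscle and 2 of 7 GTPase regulators. The cytoskeleton list had 2 of 16 and the matrix list 1 of 7. Differences between these small lists were not tested.

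Single junctions changed mostly downward. Of the 7712 annotated junctions, 528 had no read in any library and 4567 (59.2%) had enough counts to be tested. Usage changed for 171 of them (3.74%), 39 upward and 132 downward, against 1.77% of all 35554 tested junctions in the table, with 0.605% upward and 1.17% downward. Decreases made up 77.2% of the calls, against 65.9% over the whole table. The changed junctions lay in 60 genes, with decreases only in 38, increases only in 8 and both in 14. Their shares were mostly small: the median in OreR was 0.588%, against 1.71% over all tested junctions of intron-rich genes. The median share of junctions called lower went from 0.562% in OreR to 0.197% in the mutant, and that of junctions called higher from 0.649% to 1.68%. A shift of at least 1 percentage point was seen for 35 junctions, and the largest was 4.20 points. Without mutant replicate 2 the count was 100, and without OreR replicate 2 it was 110.

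Over all members together, junction counts equalled 37.6%, 35.4% and 38.5% of gene counts in the OreR libraries and 35.7%, 37.0% and 36.5% in those of the mutant. The genotypes overlapped, with means of 37.1% ± 1.61 and 36.4% ± 0.649 (SD, n = 3). With every gene weighted equally the means were 40.0% ± 1.60 and 37.8% ± 1.42. The libraries overlapped here too, at 40.3%, 38.3% and 41.4% in OreR and 36.3%, 38.2% and 39.1% in the mutant. Genes without counts in a library were left out of its mean. In the same measure, genes with 10 to 19 junctions had means of 41.2% and 39.0%.

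Usage calls were set beside the calls on gene levels. Usage was called in 32 of 57 members with a higher level (56.1%), 14 of 113 with a lower level (12.4%) and 22 of 102 without a called level (21.6%). Over the whole table the shares were 12.3%, 4.48% and 3.23%. In members with a higher level, 80 junctions were lower and 20 higher of 1120 tested. Over all genes with a higher level, 263 junctions were lower and 94 higher of 10213, so that decreases prevailed there too. In members with a lower level, 11 were lower and 7 higher of 1839, against 49 and 40 of 9111 over all genes with a lower level. Median abundance was 8.35, 6.30 and 7.18 log2 CPM in the 3 groups of members, and the difference between these shares was not tested.

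**Figure D4:**
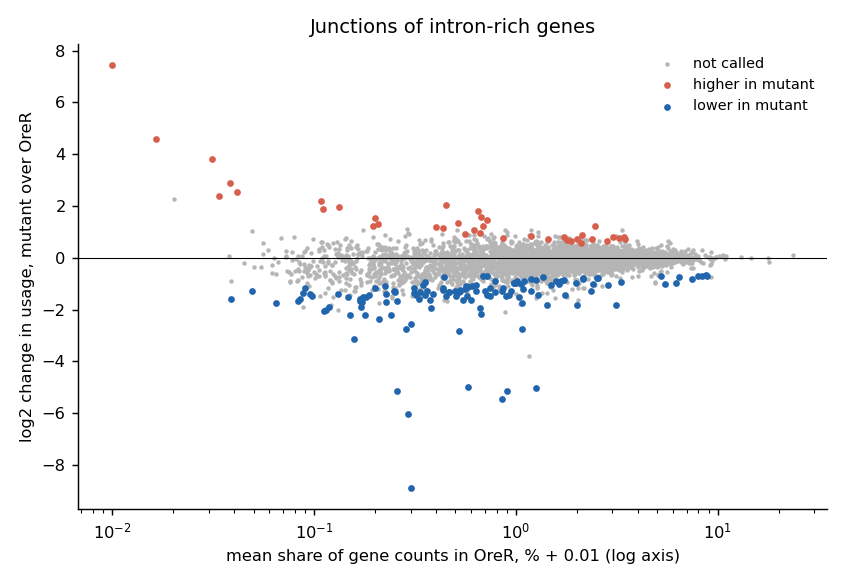
Change in usage of the 4567 tested junctions of intron-rich genes (log2, mutant over OreR, y axis) against the mean share of the gene's counts in OreR (percent plus 0.01, log axis), with 39 junctions called higher in red, 132 called lower in blue and the rest in grey. Points beyond 4 in either direction have few or no reads in 1 genotype, and their fitted values set no bound.

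In 3 genes of RNA-binding proteins, junctions seen in OreR were absent, nearly absent or less used in the mutant. In heph, junction J075 had 36, 31 and 26 counts in OreR and 0, 0 and 0 in the mutant, a share of 0.344%, 0.285% and 0.250% in OreR. The 0 counts allow a share of at most 0.0154% to 0.0181% per mutant library (3 counts of the gene's total), and the test gave an adjusted p of 2.5e-21 (diffSpliceDGE). J074 of the same gene went from 5, 3 and 2 to 35, 36 and 38 counts, and J077 from 68, 58 and 87 to 261, 291 and 341, or 0.673% to 1.68% of the gene (usage change 1.21 log2, adjusted p = 4.7e-06). Among unannotated junctions of heph, N097, N098 and N099 were called lower and N095 higher. cpo, an RNA-binding protein of the nervous system, had 47, 59 and 36 counts on J039 in OreR and 1, 2 and 0 in the mutant (adjusted p = 1e-16). Its J042 ran alongside at 48, 57 and 43 and 1, 2 and 1 counts, while the gene level of cpo was 135, 164 and 123 CPM against 182, 162 and 169.8 CPM, with overlap (adjusted p = 0.076). The level of cpo was called higher with DESeq2 (adjusted p = 0.048) and without OreR replicate 2 (0.011), whereas junction counts alone gave a log2 fold change of -0.29, against 0.29 on all counts, without a call. In shep, a further RNA-binding protein, J028 held 1.06%, 1.03% and 1.09% of the gene's counts in OreR and 0.198%, 0.0609% and 0.189% in the mutant, without overlap (usage change -2.74 log2, adjusted p = 8.8e-14).

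PAN3, a subunit of a deadenylase that shortens poly(A) tails, held paired changes on neighbouring row numbers. J033 had 51, 43 and 39 counts in OreR and 0, 2 and 1 in the mutant, and J034 had 1, 1 and 1 and 40, 46 and 45. The patterns were opposite, at shares below 1% (adjusted p = 6.4e-26 and 7.3e-13 with diffSpliceDGE). In all, 5 junctions of PAN3 were higher and 3 lower, and the gene level rose from 407, 391 and 392 CPM to 584, 644 and 675 CPM (log2 fold change 0.68 ± 0.08, adjusted p = 0.00079). Sec16, a scaffold of endoplasmic reticulum exit sites, kept overlapping levels (292, 302 and 295 CPM in OreR and 256, 299 and 343 CPM in the mutant). Its J040 nevertheless had 23, 39 and 26 counts in OreR and 1, 1 and 0 in the mutant (adjusted p = 1.5e-13).

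Of the 10 genes with the smallest Simes p, smash and cno encode proteins of adherens junctions. In smash, a LIM domain protein, J027 had 47, 36 and 49 counts in OreR and 193, 216 and 293 in the mutant. That is 0.442% ± 0.116 against 1.82% ± 0.268 of the gene (SD, n = 3; usage change 2.03 log2, adjusted p = 6.5e-14 with diffSpliceDGE). The unannotated junction N045 of smash went the other way, from 115, 129 and 118 counts to 3, 2 and 2. The level of smash changed by 0.39 ± 0.09 (adjusted p = 0.013; 0.062 with upper quartile scaling). cno, the afadin relative, had the smallest Simes p of all intron-rich genes, carried by an exonic bin, E001, whose share was 8.56%, 10.9% and 9.35% in OreR and 2.54%, 2.23% and 1.54% in the mutant. Of the annotated junctions of cno, 0 of 19 were called, also with limma and at an unadjusted p below 0.05 with diffSpliceDGE. Likewise 0 of 15 were called in FBgn0259240, whose exonic bin E005 rose from 4, 1 and 3 counts to 45, 54 and 56. scrib, outside the 10 genes with the smallest Simes p, had 11 called junctions, 3 higher and 8 lower. FBgn0005630, picked after its values were seen, had 13, of which 2 were higher and 11 lower.

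In Nhe2, a sodium/proton exchanger, J047 had 98, 122 and 113 counts in OreR and 20, 27 and 29 in the mutant, 3.11% ± 0.421 against 0.992% ± 0.272 of the gene. The groups did not overlap (usage change -1.81 log2, adjusted p = 5.9e-08 with diffSpliceDGE). An exonic bin of Nhe2, E029, fell from 25.2%, 26.2% and 25.1% of the gene's counts in OreR to 7.71%, 7.71% and 6.40% in the mutant. The gene level of Nhe2, -0.41 ± 0.08 on the log2 scale (adjusted p = 0.0059), was not called when counts on junctions alone were used (-0.08, adjusted p = 0.53). The rise of CG10353, 0.47 ± 0.10, was likewise not called on junctions alone (0.19, adjusted p = 0.19). In usage, 2 of its junctions were higher and 2 lower, with J034 at 15, 42 and 27 counts in OreR and 2, 1 and 0 in the mutant. With upper quartile scaling the gene level of CG10353 had an adjusted p of 0.052.

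**Figure D5:**
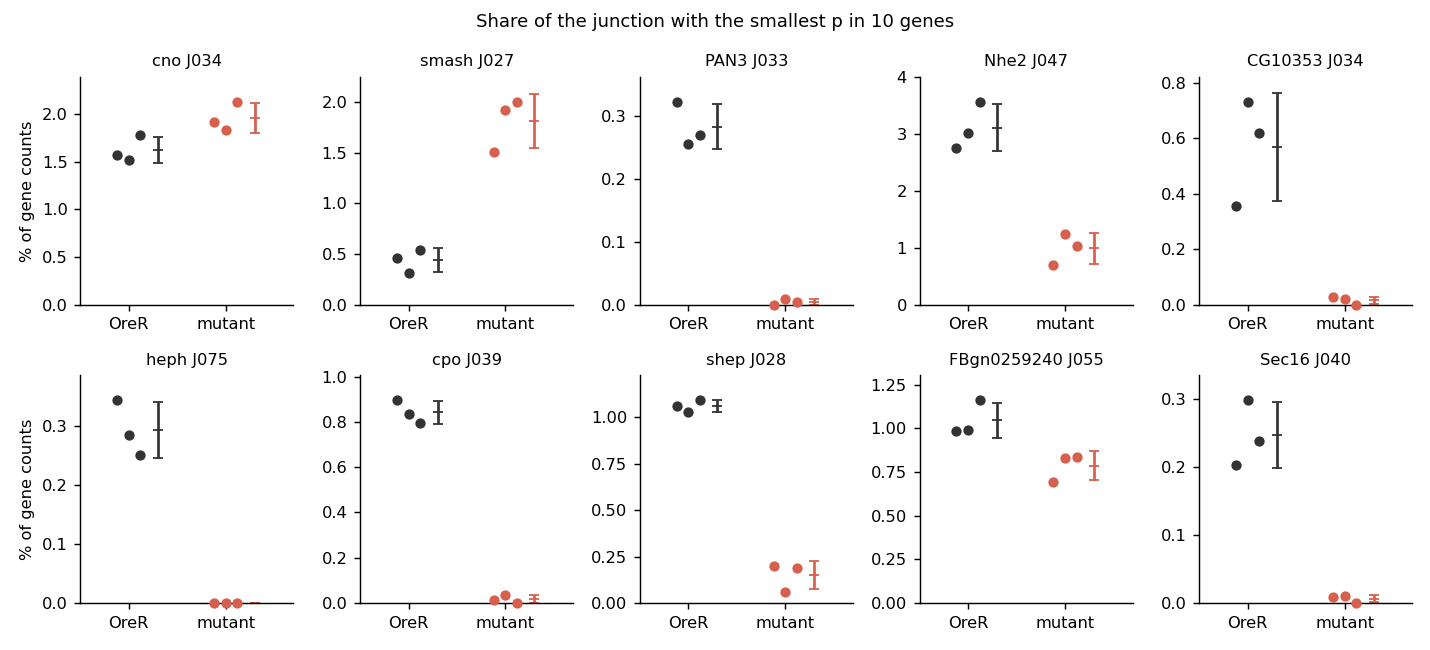
Share of the gene's counts (percent) on the annotated junction with the smallest p in each of the 10 intron-rich genes with the smallest Simes p, 1 point per library, with mean and SD (n = 3) beside the points. The junctions of PAN3, CG10353, heph, cpo and Sec16 lie at or near 0 in the mutant, that of smash is higher, and those of cno and FBgn0259240 were not called.

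The largest shifts in share among called junctions were in Tm1, Nhe3 and CaMKII, which were picked after their values were seen. Tm1 (FBgn0003721), a tropomyosin gene that makes muscle and cytoplasmic forms, had 9 junctions called lower and 6 higher of 22 tested. Its J064 carried 8.96%, 9.62% and 7.73% of the gene's counts in OreR and 5.90%, 4.96% and 2.86% in the mutant, while J058 went from 3.39%, 3.06% and 3.83% to 4.52%, 5.13% and 5.63%. Neither junction overlapped between genotypes, and mutant replicate 3 was the lowest for J064 and the highest for J058 (adjusted p = 0.031 and 0.0079 with diffSpliceDGE). The level of Tm1 was 1033, 1065 and 959 CPM in OreR and 1131, 1127 and 1088 CPM in the mutant, a difference that was not called (adjusted p = 0.18), beside muscle markers that were lower in 7 of 12. Tm1 also held a junction with no read in OreR, J047, at 12, 21 and 28 counts in the mutant (adjusted p = 5.5e-07), and the 0 counts allow at most 0.00653% to 0.00849% per OreR library. Nhe3, another sodium/proton exchanger, had 2.35%, 1.76% and 3.22% of its counts on J037 in OreR and 5.26%, 6.60% and 5.23% in the mutant (adjusted p = 7.2e-06). CaMKII had 7.35%, 7.42% and 7.47% on J029 in OreR, within a narrow band, and 4.15%, 4.59% and 3.93% in the mutant (usage change -0.82 log2, adjusted p = 0.00013).

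Few junctions met a strict rule for use in 1 genotype only. With at least 10 counts in every library of 1 genotype and 0 in the other as the rule, 3 of the 7712 junctions qualified, those of heph and Tm1 above and J045 of Dscam4. This count depends on depth, since 3145 of the 7712 had too few counts to be tested. The rule also leaves out junctions with a few reads left, such as J033 of PAN3 and J039 of cpo. The same count over the whole table was not made. The Dscam4 junction had 24, 15 and 14 counts in OreR and 0, 0 and 0 in the mutant. Because the gene itself was down to 94 to 228 counts per mutant library, 0 counts allow a share of up to 1.32% to 3.19%, and its usage was not called (unadjusted p = 0.0029, adjusted p = 0.12 with diffSpliceDGE). In ens, whose level rose, 7 junctions were called lower and 0 higher of 23 tested (1 higher at an unadjusted p below 0.05 with diffSpliceDGE and 1 with limma), with J033 at 80, 108 and 75 counts in OreR and 54, 49 and 83 in the mutant. These counts overlapped between genotypes while the gene's counts rose, and the share of J033 went from 0.706% to 0.257% (adjusted p = 5.1e-06).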

How the data were processed

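Raw counts of exonic bins, annotated junctions and unannotated junctions were deposited by the authors in 1 table for the 6 libraries, in the row format of JunctionSeq per the file headers. Reads were processed with GSNAP and SAMtools, and the notes list the builds BDGP5 and mm10, per the submitters' processing notes. The authors also deposited signal columns, the counts divided by a size factor per library, which were not used. Gene counts were recovered as the smallest sum of a row's count and the count of the rest of its gene. Symbols came from a BDGP6 table (14100 of 14737 matched), so no coordinates are printed. Sequences and caper were not analysed here. The result for another gene is not reported here.

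edgeR 4.0.16 under R 4.3.3 was fitted to the whole table (glmQLFit and glmQLFTest after filterByExpr and TMM scaling; diffSpliceDGE for usage), genotype being the only term, with Benjamini-Hochberg adjustment at 0.05 over all genes or rows tested. CPM used TMM-scaled libraries, log2 CPM a prior count of 2, and SEs are absolute log2 fold changes over the square root of F. DESeq2 1.42.0 and limma 3.58.1 served as alternatives, and the fits were tested on simulated data. The limits on shares cover counting error only.

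Genes were named by rule: the 8 members with most junctions, the 8 largest rises and falls among called members without overlap whose mean log2 CPM was 1 or more, the 10 smallest Simes p, the 3 smallest p per role list, and the 2 most abundant genes with 20 and with 19 junctions. Others were picked after their values were seen. The members, lists and tests were chosen with earlier results of these data known. Replicates are biological per the labels, which do not say whether they came from separate cultures or collections; otherwise p-values measure only the spread between these samples. No pair of libraries agreed within sampling noise.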

Additional observations from a re-analysis of the deposited data

How the results depend on the processing

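No called change of a gene or junction named by the rule reversed its direction in any alternative. Gene levels that were not called turned for Sec16 (0.02 in log2; -0.15 with upper quartile scaling and -0.09 without mutant replicate 3) and for cpo (0.29; -0.29 with junction counts alone). Of the libraries left out, mutant replicate 2 gave the lowest of each count. Leaving out each library in turn gave 96 to 151 changed members, 43 to 65 higher, 53 to 100 lower, 41 to 68 with changed usage and 100 to 185 changed junctions. With a limit of 15 junctions, 318 of 555 tested genes changed (122 higher, 196 lower), 113 had changed usage and 260 junctions changed. With a limit of 30, 45 of 65 changed (13 higher, 32 lower), 16 had changed usage and 49 junctions changed. These limits alter how many genes are counted. With every gene weighted equally, junction counts equalled 40.0% of gene counts in OreR and 37.8% in the mutant, with overlapping libraries. Upper quartile scaling gave 41 higher and 156 lower (20.8% of calls higher, against 33.7%). DESeq2 gave 64 and 123, DESeq2 size factors in edgeR 58 and 105, no filter on low counts 60 and 94, and junction counts alone 61 and 121. Changed usage was found in 47 of 251 members when junctions alone were fitted, in 85 with limma, in 71 without a filter and in 69 with upper quartile scaling, with 182, 227, 202 and 169 junctions. The cause of these differences was not tested.

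With the replicate number as a block, 181 members changed (56 higher, 125 lower), 66 had changed usage and 182 junctions changed, and the calls of Dnah3 and Dhc36C were lost (adjusted p = 0.067 and 0.059 with edgeR). Same-numbered libraries had correlations of 0.04, -0.10 and 0.69 between their deviations from the group means. With 3 libraries per genotype these values cannot decide whether the numbers pair the samples. Of the 3 OreR libraries, only replicate 3 correlated best with its own number. Depth limits the test of junctions: 3145 of the 7712 annotated junctions had too few counts to be tested, 528 of them with no read in any library.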
